A study of Mus musculus with 22 samples.

Results

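Late-passage mouse embryonic fibroblasts (MEFs) that lack both S6 kinases were compared with early-passage wild-type (WT) MEFs by RNA-seq, to ask which of the changes that come with serial passage were present without the kinases. The comparison took 7 of the 22 libraries of the series: 4 early WT libraries at passage 3 (labelled S6K1/S6K2 WT) and 3 late DKO libraries at passage 8 (labelled S6K1/S6K2 DKO, double knockout of *Rps6kb1* and *Rps6kb2*), chosen by their labels. It covered the 14365 of 55401 genes in the table that passed a filter on low counts. MEFs were made from C57BL/6 embryos without head and viscera. DKO embryos came from parents heterozygous for S6K1 and lacking S6K2, whereas WT embryos came from WT mothers of earlier breeding steps, so genotype, litter and passage differ together and cannot be told apart here. Another 2 sets of libraries are given beside it: the 4 late WT libraries (passage 8) of the same MEF set, set against the same early WT libraries, and a separate S6K1 set, with 4 early WT (passage 3) and 4 late WT (passage 8) libraries, which shares no library with the comparison. The S6K1 set also holds 3 late KO libraries (labelled S6K1 KO, passage 8), which are not compared here. They enter its fits only through the filter on low counts, the scaling and the spread.

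S6K1 and S6K2 are kinases that act below mTORC1, and they phosphorylate ribosomal protein S6. They link growth factors and nutrients to translation and metabolism. MEFs that are passaged in culture stop dividing, a state called replicative senescence, in which the p16INK4a and p53 pathways hold the cell cycle and many cells secrete cytokines, chemokines, proteases and growth factors (the senescence-associated secretory phenotype, SASP). Embryo preparations also carry other cells, macrophages among them, into the first passages.

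Total counts were 14997466 to 16346322 in early WT and 10742454 to 15246623 in late DKO libraries. All levels below are CPM (counts scaled to a common library size) after TMM scaling, differences are log2 fold changes with standard errors, and a gene passed at a Benjamini-Hochberg adjusted *P* under 0.05 in edgeR's quasi-likelihood test over all genes tested. The labels name no culture or animal for a library, so the *P* values measure the spread between these libraries. Early WT replicates 1 and 2 resembled each other (Pearson's r of log2 CPM over genes 0.9917), as did replicates 3 and 4 (0.9865), while pairs across them gave 0.9669 to 0.9778. Late DKO replicate 1 had more macrophage transcripts than replicates 2 and 3. Y-linked genes were read in early WT replicates 2 and 3 and in late DKO replicate 2, so both groups held both sexes. Fibroblast markers were abundant in every library: the 15 markers summed to 32750 to 43020 CPM in early WT and 27800 to 30790 CPM in late DKO.

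The deleted genes were checked first. *Rps6kb2* (chromosome 19, 4156792 to 4163383, GRCm38) stood at 19.6, 21.3, 14.7 and 19.1 CPM in early WT and at 0.599, 0.496 and 1.39 CPM in late DKO, a log2 change of −4.41 ± 0.33 (adjusted *P* = 4.2e-05). *Rps6kb1* (chromosome 11, 86498869 to 86544885) stood at 87.7, 79.4, 74.1 and 87.0 CPM in early WT and at 23.3, 20.9 and 28.9 CPM in late DKO, a log2 change of −1.75 ± 0.15 (adjusted *P* = 0.00011). The groups did not overlap for either gene, and the reads left of *Rps6kb1* are counts of the whole gene, in which the deleted part was not marked off. In late WT libraries of the same set the changes were −0.11 (adjusted *P* = 0.61) for *Rps6kb1* and −0.46 (adjusted *P* = 0.19) for *Rps6kb2*. In the S6K1 set, both genes passed as lower in late WT (−0.54 and −0.68).

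Of the 86 other tested genes with a RefSeq position within 5 Mb of *Rps6kb1*, 15 fell and 7 rose in late DKO, against 1141 and 1140 of the 11914 tested genes with a position. The fallers included 4 members of the Schlafen cluster. *Slfn10-ps*, a Schlafen pseudogene (chromosome 11, 83028123 to 83040533), had 2.86, 2.72, 2.35 and 1.00 CPM in early WT and 0, 0 and 0.126 CPM in late DKO. This was 146 counts against 2, a ratio of 42.7 with a 95% exact interval of 11.6 to 356 that covers counting error only. In late WT it stood at 1.13 to 3.05 CPM. Within 5 Mb of *Rps6kb2*, 17 of 152 tested genes fell and 14 rose.

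In late DKO against early WT, 2623 of 14365 genes passed (18.3%), with 1342 higher (9.34%) and 1281 lower (8.92%). Of these, 566 rose and 539 fell by a log2 change of at least 1. The libraries of the groups did not overlap in 2485 of the genes that passed, and in 4376 of all 14365 tested. The count of 2623 depended on single libraries: it was 1554 without early WT replicate 1, 1516 without early WT replicate 2, 1628 without late DKO replicate 1 and 1163 without late DKO replicate 2.

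The 10 largest falls among genes with a mean of at least 1 CPM and no overlap were led by *Angptl7* and *Slfn10-ps*. *Angptl7*, a secreted angiopoietin-like protein, stood at 45.0, 37.8, 12.5 and 14.9 CPM in early WT and at 0.428, 0 and 1.01 CPM in late DKO (−5.67 ± 0.73, adjusted *P* = 0.00095). It was also low in late WT, at 0.783 to 1.66 CPM. *Msln*, the mesothelial surface protein mesothelin, went from 21.1 to 61.3 CPM to 1.03 to 3.34 CPM (−4.33 ± 0.58), and late WT libraries lay at 0.464 to 1.66 CPM. *Igf2as*, an antisense transcript at the *Igf2* locus, fell by 4.32 on the log2 scale, and *Slc38a4*, an imprinted amino acid transporter, fell by 3.47. *Ddx60* and *Rsad2*, both induced by interferon, fell by 4.08 and 3.49. For these 6 genes late WT was also lower than early WT, with log2 changes of −2.12 to −5.60 that all passed.

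Large falls that did not pass in late WT included *Slfn10-ps*, described above, and *Gm15698*. *Gm15698* went from 0.953, 1.11, 4.18 and 13.5 CPM to 0, 0.298 and 0.316 CPM, and its call was lost without any 1 of the late DKO libraries.

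The largest rises were in the AP-1 genes *Fos* (5.72 ± 0.28, adjusted *P* = 1.6e-06) and *Fosb* (5.67 ± 0.35), taken up below, and in 8 genes that stood at a few CPM or less in early WT, apart from *Igfbp2*. *Serpinb6c*, a serine protease inhibitor, had 0, 0, 0.0653 and 0.2 CPM in early WT and 5.22, 1.69 and 1.89 CPM in late DKO. Carboxylesterases split lipid esters and drugs: *Ces2g* rose by 4.92 ± 0.65, *Ces1a* by 4.03 ± 0.67 and *Ces2e* by 3.97 ± 0.59 on the log2 scale, from at most 1.33 CPM in any early WT library to 2.28 to 22.9 CPM in late DKO. The cell adhesion gene *Cdh8* rose by 4.95 ± 0.66, from 0 to 0.186 CPM to 1.19 to 5.93 CPM. *Car10*, a protein related to carbonic anhydrases, rose by 5.24 ± 0.81 and stood at 0.856 to 4.54 CPM in late DKO against 0.0712 to 0.498 CPM in late WT. *Igfbp2*, a secreted IGF binding protein, stood at 31.2, 27.1, 17.3 and 24.6 CPM in early WT and at 811, 189 and 396 CPM in late DKO (4.22 ± 1.11, adjusted *P* = 0.027). The late WT libraries were at 533, 43.7, 43.5 and 11.4 CPM, so 1 late WT library lay inside the late DKO range and 1 below all early WT libraries. The call of *Igfbp2* was lost without any 1 of the early WT libraries, and without late DKO replicate 1 or 3. That of *Tcerg1l* (0.599, 7.54 and 7.38 CPM in late DKO, at most 0.267 CPM in early WT) was lost without early WT replicate 2 or late DKO replicate 2. In late WT, rises of *Serpinb6c* (log2 change 4.96), *Ces2g* (3.78), *Ces1a* (2.48), *Ces2e* (3.66) and *Cdh8* (2.89) over early WT also passed. The late WT changes of *Car10* (1.89), *Igfbp2* (2.66) and *Tcerg1l* (2.78) did not pass.

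**Figure D1:**
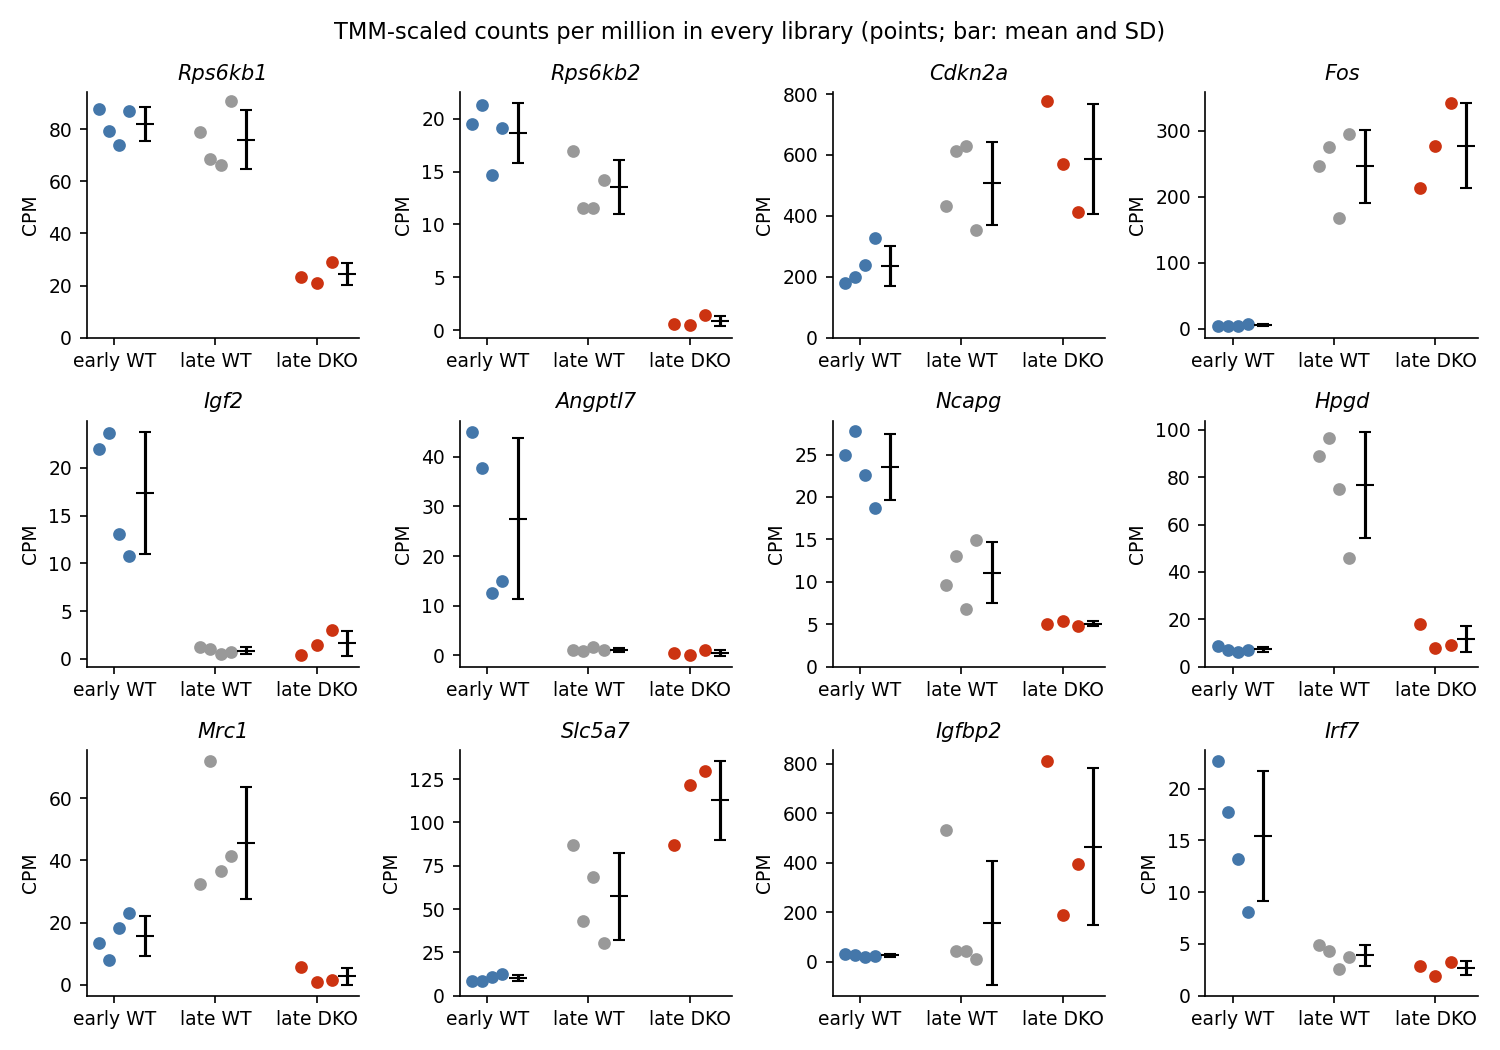
TMM-scaled CPM (y axis, linear) of 12 named genes in every early WT (n = 4, blue), late WT (n = 4, grey) and late DKO (n = 3, red) library; each point is a library and the bar beside it is the mean with its SD. *Igf2*, *Angptl7* and *Irf7* were low in both late groups and *Fos* was high in both, while *Hpgd* was high in late WT only among these groups and *Rps6kb1* and *Rps6kb2* were low in late DKO only.

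The question of the comparison was then put to genes that change with passage in WT MEFs of the S6K1 set, whose libraries enter no value of the late DKO comparison. There, 983 genes were higher (6.96% of 14132 tested) and 844 lower (5.97%) in late than in early WT. Of the 983 risers, 962 were tested in late DKO, and 232 of them (24.1%) rose, 29 fell and 701 did not pass. The median log2 change of the 962 was 0.34 in late DKO and 1.56 in the S6K1 set. Of the 844 that fell with passage, 828 were tested, and 212 (25.6%) fell in late DKO, 22 rose and 594 did not pass, with a median of −0.39 against −0.99 in the S6K1 set. The shares are to be read against the 9.34% and 8.92% of all genes that passed in each direction.

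The same lists were set beside late WT of the S6K1/S6K2 set, which shares its early WT libraries with the late DKO comparison and in which 8.28% of tested genes rose and 4.89% fell. There, 599 of the 962 risers (62.3%) rose with a median of 1.12, and 224 of the 828 fallers (27.1%) fell with a median of −0.51. So the shares of risers were 24.1% in late DKO and 62.3% in late WT, and the shares of fallers were 25.6% and 27.1%. The difference between these shares was not tested. Without late DKO replicate 1 the late DKO shares were 14.0% and 16.2%, and without late DKO replicate 2 they were 14.1% and 14.4%. The share of risers was 14.7% without early WT replicate 1 and also without early WT replicate 2. The median of risers in late DKO was 0.159 without late DKO replicate 1, and the medians of risers and fallers were 0.198 and −0.168 with Y-linked genes as a covariate. The count of 444 genes passed in the same direction fell to 287 without early WT replicate 2, to 271 without late DKO replicate 1, to 257 without late DKO replicate 2, and to 271 and 295 without S6K1-set late WT replicates 2 and 3.

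Risers with passage that also rose in late DKO were led by *Pltp*, a lipid transfer protein of plasma lipoproteins. It stood at 31.8, 28.2, 39.4 and 39.4 CPM in early WT, at 114, 119 and 114 CPM in late DKO and at 107 to 153 CPM in late WT (late DKO 1.74 ± 0.15, adjusted *P* = 0.00011, S6K1-set late WT 1.52). *Pid1*, which binds a lipoprotein receptor, rose by 1.59 ± 0.15, and *Glt8d2* and *Pkia*, an inhibitor of protein kinase A, rose by 1.96 and 1.93. *Slc5a7*, the choline transporter, stood at 8.63, 8.48, 10.7 and 12.5 CPM in early WT, at 86.9, 122 and 130 CPM in late DKO and at 30.6 to 86.8 CPM in late WT (late DKO 3.49 ± 0.32). For all 5 genes the early WT and late DKO libraries did not overlap.

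Fallers with passage that also fell in late DKO included, beside the S6 kinases themselves, *Igfbp5* and *Glipr2*. The S6 kinases are counted among these fallers, but they are the genes deleted in late DKO, so their fall there cannot be read as a passage change. *Igfbp5*, an IGF binding protein of the matrix, stood at 311, 142, 260 and 184 CPM in early WT, at 29.8, 39.3 and 35.0 CPM in late DKO and at 29.5 to 56.5 CPM in late WT (late DKO −2.69 ± 0.30, S6K1-set late WT −2.90). *Glipr2* went from 192 to 223 CPM to 86.1 to 91.0 CPM (−1.24 ± 0.15). The 5 genes that moved most clearly against the S6K1-set passage change were the immediate-early genes *Fos*, *Fosb*, *Junb*, *Zfp36* and *Ier2*.

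**Figure D2:**
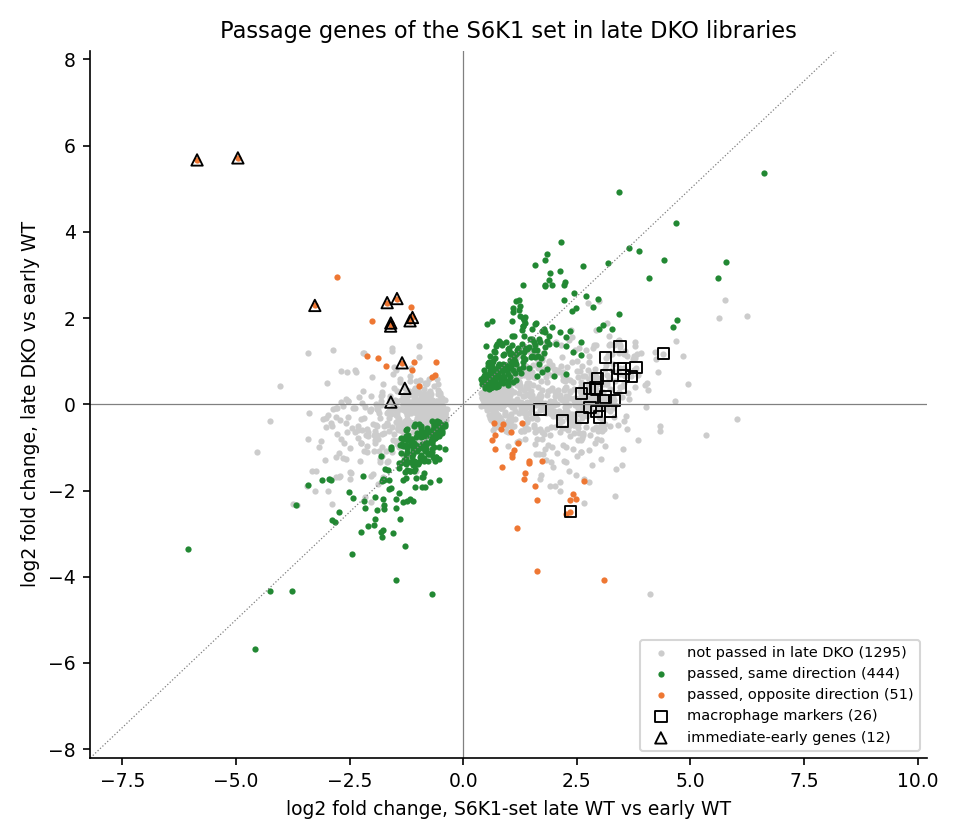
Each point is 1 of the 1790 genes that passed with passage in WT MEFs of the S6K1 set and were tested in late DKO; the x axis is the log2 fold change there, the y axis the log2 fold change in late DKO against early WT, and the dotted line marks equal change. In late DKO 444 genes passed in the same direction (green), 51 in the opposite direction (orange) and 1295 did not pass (grey), with the 26 macrophage markers (squares) right of centre near a y value of 0 and the 12 immediate-early genes (triangles) upper left.

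Of all tested genes 9.34% rose and 8.92% fell in late DKO, and the late DKO counts of each list below are to be read against these shares. Of the 34 gene lists, macrophage markers had the largest median rise with passage in WT MEFs of either set, and none of them rose in late DKO. All 26 markers (among them *Csf1r*, the receptor for the macrophage growth factor CSF1, *Lyz2*, lysozyme, and the complement genes *C1qa* to *C1qc*) rose in late WT of both MEF sets, with median log2 changes of 2.58 in the S6K1/S6K2 set and 3.11 in the S6K1 set. In late DKO none rose, 1 fell and 25 did not pass, with a median of 0.35 and a range of −2.49 to 1.34. Summed over the 26 genes, early WT libraries held 977, 683, 1953 and 2315 CPM, late DKO libraries 4030, 1281 and 1103 CPM, and late WT libraries 8735 to 14820 CPM. Late DKO replicate 1 lay above the early WT libraries, replicates 2 and 3 lay within their range, and every late WT library lay above both groups. None of the 26 was at 0 throughout the 7 libraries. These are bulk libraries, in which fewer cells of a type and less RNA per cell cannot be told apart.

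The marker that fell was *Mrc1*, the mannose receptor of tissue-type macrophages. It stood at 13.4, 7.86, 18.3 and 22.9 CPM in early WT, at 5.82, 0.893 and 1.64 CPM in late DKO and at 32.4 to 71.9 CPM in late WT (late DKO −2.49 ± 0.58, adjusted *P* = 0.015). Its call was lost without late DKO replicate 2 or 3. In the test of the difference between the late DKO change and the S6K1-set passage change, 24 of the 26 markers passed as lower in late DKO, with a median difference of −2.88.

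Genes of the inflammasome, the complex that activates caspase-1 and matures IL-1β, rose in part with passage in WT MEFs. Of 17 tested, 11 rose in late WT and 9 of 16 in the S6K1 set, against 2 in late DKO, where 1 fell. The share that passed in late DKO was 17.6%, beside 18.3% of all tested genes. The filter on low counts also took in late WT, so members high only there were among the 17. With only the early WT and late DKO libraries in the fit, 12 members were tested, of which 1 rose and 1 fell. None of the 9 risers of the S6K1 set passed in late DKO, and 8 of them rose in late WT. *Gsdmd*, whose product forms the pores of pyroptosis, stood at 7.51 to 8.23 CPM in late DKO, below every early WT library (log2 change −0.92 ± 0.21), and *Nek7*, a partner of NLRP3, rose by 0.56 ± 0.14, a call that was lost without late DKO replicate 3. *Il1b*, the cytokine that caspase-1 cleaves, held 2 counts in the early WT libraries together and 15 in the late DKO libraries (0.342, 0.893 and 0.126 CPM), a ratio of 12.8 with an exact 95% interval of 2.98 to 116. The late WT libraries held 1.06 to 2.14 CPM. *Il1b* met the filter on low counts only through the late WT libraries, which held 16 to 30 counts each. Its call (adjusted *P* = 0.022) was lost without early WT replicate 2 or 3 or late DKO replicate 2. *Il1a* was at or under 3 counts in every early WT, late WT and late DKO library, and *Il6* overlapped between the groups, at 1.79, 1.98, 6.66 and 9.74 CPM in early WT and 8.56, 4.17 and 2.52 CPM in late DKO (0.01 ± 0.57).

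CC chemokines, which attract monocytes and other leukocytes, were mixed. Of 13 tested, 2 rose and 2 fell in late DKO, while 4 rose and none fell in late WT. *Ccl2*, the main monocyte attractant of fibroblasts, went from 39.4, 43.1, 91.3 and 64.0 CPM to 180, 136 and 110 CPM (1.26 ± 0.37), close in size to late WT (1.31). Its call was lost without early WT replicate 1, 2 or 4 or late DKO replicate 1 or 2. *Ccl8* rose by 2.28 ± 0.46, from 2.35 to 8.16 CPM to 9.97 to 33.2 CPM. *Ccl9*, expressed by macrophages, stood at 6.50, 5.76, 21.0 and 18.7 CPM in early WT, at 4.88, 2.78 and 1.58 CPM in late DKO (−2.09 ± 0.55) and at 25.2 to 49.4 CPM in late WT, and *Ccl12* fell by 2.88 on the log2 scale with overlapping libraries. Calls of *Ccl9* and *Ccl12* were lost without early WT replicate 3 or late DKO replicate 2 or 3. *Ccl2*, *Ccl8*, *Ccl9* and *Ccl12* all lie within 5 Mb of *Rps6kb1*, among the neighbours counted above. The part of their position near the deleted gene in these changes was not tested. Among 12 CXC and CX3C chemokines, *Cxcl10*, induced by interferon, fell by 2.97 and *Pf4*, a platelet and macrophage chemokine, by 2.86, and *Cxcl2*, a neutrophil attractant, rose by 2.96 ± 0.57. *Cxcl2* stood at 0.131 to 0.224 CPM in early WT, at 1.80, 1.79 and 0.631 CPM in late DKO and at 2.65 to 7.62 CPM in late WT. In the S6K1 set *Cxcl2* fell by 2.78 on the log2 scale with passage (adjusted *P* = 0.0015), and the difference between the changes was 5.72 (adjusted *P* = 0.00011).

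**Figure D3:**
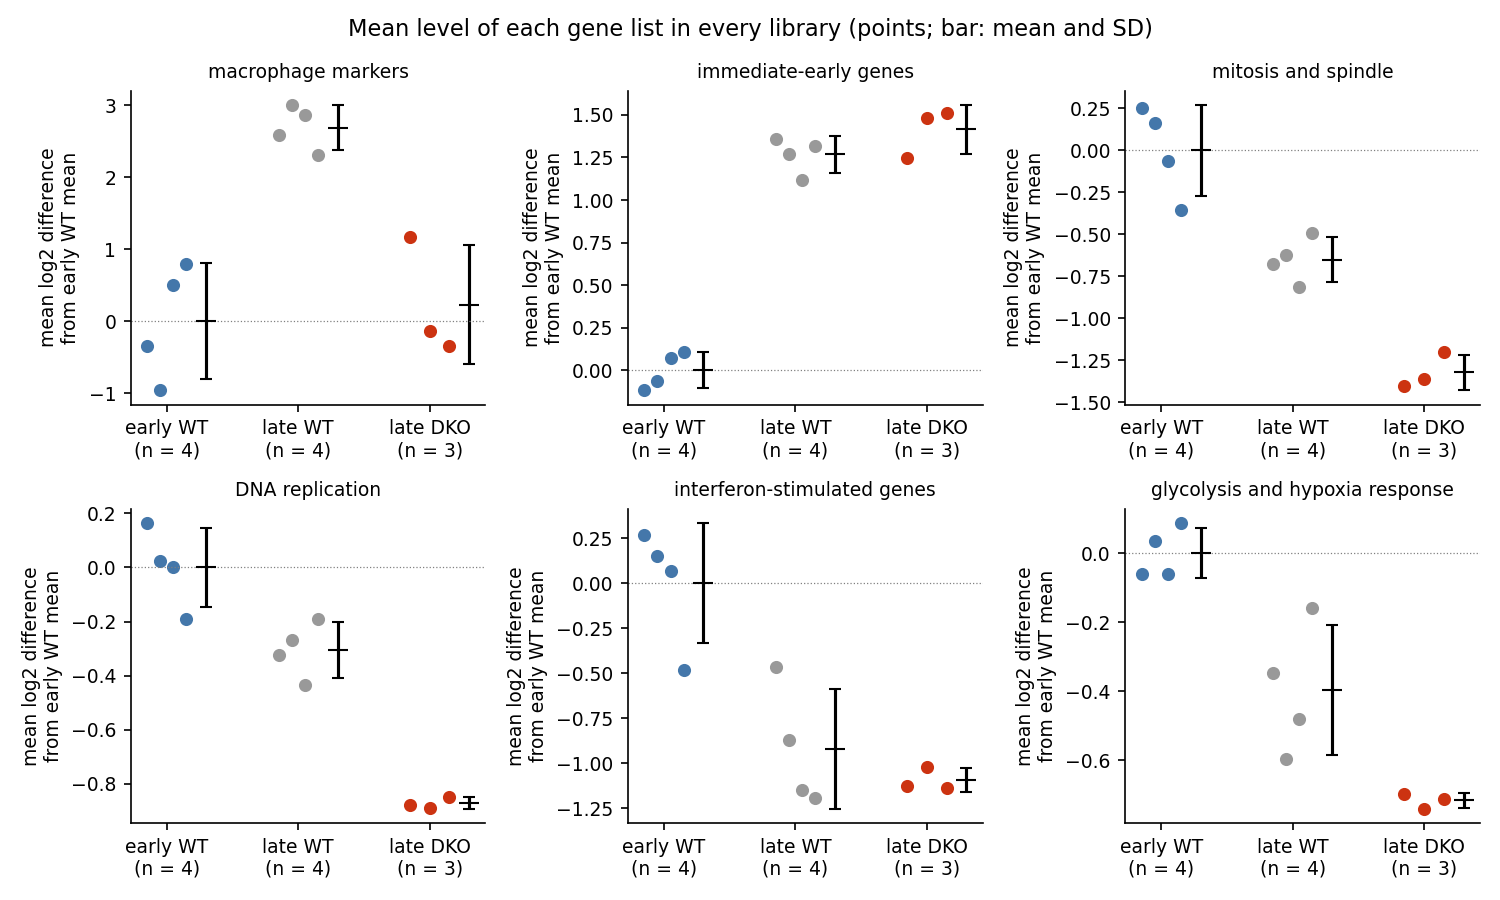
Mean log2 CPM of the tested members of 6 gene lists in every library, drawn as the difference from the early WT mean (y axis, log2 units) for early WT (n = 4), late WT (n = 4) and late DKO (n = 3); points are libraries and bars are the mean with its SD. The macrophage list is highest in late WT, and late DKO replicate 1 also lies above the early WT libraries. The immediate-early list is high and the interferon list low in both late groups, and the mitosis, DNA replication and glycolysis lists are lowest in late DKO.

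Of the 34 lists, that of mitosis had the most fallers. Of 78 tested genes of mitosis and the spindle, 72 fell and 1 (*Pttg1*, securin, 0.74) rose in late DKO, with a median of −1.42, whereas 43 fell in late WT (median −0.71) and 7 in the S6K1 set (median −0.45). All 7 fell in late DKO too. *Ncapg*, a condensin subunit (chromosome 5, 45669891 to 45700547), stood at 24.9, 27.8, 22.6 and 18.7 CPM in early WT, at 5.05, 5.36 and 4.80 CPM in late DKO and at 6.79 to 14.9 CPM in late WT (late DKO −2.21 ± 0.26, adjusted *P* = 0.00046). The checkpoint kinase gene *Bub1b* went from 24.8, 22.6, 14.2 and 13.0 CPM to 2.57, 3.97 and 5.80 CPM (−2.17 ± 0.31). *Troap*, a spindle protein, fell by 2.47 and *Cdca2*, a chromatin-bound phosphatase partner, by 2.25. For these 4 genes the early WT and late DKO libraries did not overlap. The mean log2 level of the list was 1.20 to 1.40 below early WT in the late DKO libraries and 0.49 to 0.81 below it in the late WT libraries, as the plot of list levels shows.

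Promoters of mitotic genes often carry a cell cycle homology region (CHR, TTTGAA) and CCAAT boxes, the elements through which DREAM and NF-Y complexes act. Windows from 250 bases before to 30 after the first listed RefSeq start (GRCm38.p6) were searched for both motifs on both strands. A promoter was matched for 63 of the 78 tested genes, and 36 of these (57.1%) held a CHR and 45 (71.4%) a CCAAT box, against 17.4% and 36.6% of 27025 promoters. Among 9388 tested genes with a promoter the shares were 11.2% and 37.8%, and among 911 that fell in late DKO they were 15.5% and 41.5%. The windows of *Troap* (chr15:99074723-99075002, plus strand), *Ncapg* (chr5:45669675-45669954, plus strand) and *Bub1b* (chr2:118597961-118598240, plus strand) are shown for the elements they hold, with CHR and CCAAT matches in capitals (ATTGG is CCAAT on the other strand).
Troap: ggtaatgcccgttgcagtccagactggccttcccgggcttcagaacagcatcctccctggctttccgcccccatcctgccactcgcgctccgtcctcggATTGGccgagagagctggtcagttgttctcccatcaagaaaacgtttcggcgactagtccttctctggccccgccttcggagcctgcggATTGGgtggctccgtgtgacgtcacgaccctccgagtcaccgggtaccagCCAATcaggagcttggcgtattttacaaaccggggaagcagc
Ncapg: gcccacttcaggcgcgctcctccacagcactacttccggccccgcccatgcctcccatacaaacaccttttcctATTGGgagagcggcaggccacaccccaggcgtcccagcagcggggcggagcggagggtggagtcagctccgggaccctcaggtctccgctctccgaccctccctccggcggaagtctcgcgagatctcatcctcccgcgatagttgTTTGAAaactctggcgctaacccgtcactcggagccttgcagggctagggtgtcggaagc
Bub1b: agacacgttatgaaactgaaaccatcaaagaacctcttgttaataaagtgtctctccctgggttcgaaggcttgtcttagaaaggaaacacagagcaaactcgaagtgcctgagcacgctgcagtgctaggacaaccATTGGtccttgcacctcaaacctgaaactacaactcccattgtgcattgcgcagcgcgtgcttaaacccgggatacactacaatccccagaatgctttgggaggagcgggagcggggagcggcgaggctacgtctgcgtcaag
*Ncapg* holds a CHR that starts 30 bases before the listed start used for its window and a CCAAT box 176 bases before it. That listed start lies inside the gene span given above for *Ncapg*. *Troap* holds 3 CCAAT boxes and no CHR in this window, and *Bub1b* holds 1 CCAAT box. A match is a description of the letters only.

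DNA replication genes fell with them in late DKO: 34 of 46 fell and 1 rose (*E2f1*, 0.52), with a median of −0.94. In late WT 3 fell and 1 rose (median −0.31), and in the S6K1 set none passed. *Mcm5*, a helicase subunit, stood at 35.9, 25.3, 22.8 and 21.4 CPM in early WT, at 8.81, 6.95 and 8.08 CPM in late DKO and at 12.9 to 23.8 CPM in late WT (late DKO −1.73 ± 0.24). *Mcm10*, *Tk1* (thymidine kinase) and *Pole2* (a polymerase ε subunit) fell by 2.03, 1.90 and 1.80 on the log2 scale. In the test of the difference between the late DKO change and the S6K1-set passage change, 12 of 46 replication genes and 19 of 78 mitosis genes passed as lower, and none as higher.

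The cell cycle inhibitors *Cdkn2a* and *Cdkn1a* rose in late DKO. *Cdkn2a*, which encodes p16INK4a and p19ARF, stood at 181, 198, 240 and 326 CPM in early WT, at 777, 570 and 414 CPM in late DKO and at 352 to 629 CPM in late WT (late DKO 1.31 ± 0.27, adjusted *P* = 0.0078), with a change of 1.10 in late WT and 1.20 in the S6K1 set. *Cdkn1a* (p21), a p53 target, went from 398 to 632 CPM to 893, 836 and 756 CPM (0.66 ± 0.19, adjusted *P* = 0.032), a call lost without early WT replicate 1 or 2 or late DKO replicate 1 or 2. It did not pass in late WT (0.47, adjusted *P* = 0.095) or in the S6K1 set (0.05, adjusted *P* = 0.89). Of 23 genes of senescence arrest and chromatin, 5 rose and 7 fell, with 3 risers without early WT replicate 1 or 2 or late DKO replicate 2. *Lmnb1*, the lamin whose loss is used as a senescence marker, went from 18.9 to 32.3 CPM to 7.53, 4.56 and 10.5 CPM (−1.82 ± 0.31) and stood at 11.6 to 23.7 CPM in late WT. *Hmga1*, a chromatin protein of dividing cells, fell by 1.88 ± 0.15. *Igfbp3* rose from 190 to 400 CPM to 801, 1270 and 1484 CPM (2.17 ± 0.34), while late WT lay at 203 to 487 CPM.

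Of 28 p53 target genes, 11 rose and 1 fell in late DKO, against 7 and 1 in late WT and 3 and 1 in the S6K1 set. The count of 11 was 4 and 6 without early WT replicates 1 and 2, and 5 without late DKO replicate 1 or 2. *Perp*, an apoptosis-linked membrane protein, rose by 2.43 ± 0.42, the death receptor gene *Fas* from 22.3 to 29.1 CPM to 66.5 to 72.1 CPM (1.45 ± 0.17) and *Trp53inp1* by 0.97 ± 0.16. *Ddit4*, an inhibitor of mTORC1, fell to 27.9 to 30.1 CPM, below every early WT library (−0.98 ± 0.13).

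Interferon-stimulated genes fell in late DKO and in late WT. Of 56 tested, 32 fell and 1 rose in late DKO (median −1.24), 32 fell and 2 rose in late WT (median −0.96), and 13 of 57 fell and 4 rose in the S6K1 set (median −0.40). Of those 13, 10 fell in late DKO and 12 in late WT, among them *Isg15*, *Usp18* and *Ifit1*. The count of 32 in late DKO was 21 without early WT replicate 1 or without late DKO replicate 1. *Rsad2* (viperin, an antiviral enzyme) stood at 7.01, 5.82, 8.48 and 5.74 CPM in early WT, at 0.513, 0.794 and 0.505 CPM in late DKO (−3.49 ± 0.51) and at 0.398 to 2.43 CPM in late WT. *Mx1*, an antiviral GTPase, held 100 counts in early WT and none in late DKO, at least 19.5-fold lower when 3 counts are allowed over the late DKO libraries together. *Oasl1* held 82 counts against 1, a ratio of 48.0 with an exact 95% interval of 8.37 to 1917. *Oas1a*, which makes the activator of RNase L, went from 2.80 to 8.05 CPM to 0.941, 0.496 and 0.126 CPM (−3.17 ± 0.58), and late WT stood at 2.65 to 4.41 CPM.

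Interferon acts on these genes through the interferon-stimulated response element, searched here as a pair of GAAA runs 2 bases apart, on both strands of the same windows. It was found in 19 of the 42 genes of the list with a promoter (45.2%), in 3.35% of all promoters and in 2.88% of tested genes with a promoter. The shares were 4.17% among the genes that fell in late DKO and 2.56% among those that rose. The windows of *Rsad2* (chr12:26456423-26456702, minus strand) and *Oas1a* (chr5:120907496-120907775, minus strand) are shown with the element in capitals.
Rsad2: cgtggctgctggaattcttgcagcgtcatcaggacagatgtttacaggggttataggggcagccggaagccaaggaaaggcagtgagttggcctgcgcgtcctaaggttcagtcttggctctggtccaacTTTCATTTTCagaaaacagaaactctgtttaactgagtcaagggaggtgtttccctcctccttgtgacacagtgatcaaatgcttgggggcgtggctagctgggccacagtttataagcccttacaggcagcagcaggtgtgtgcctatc
Oas1a: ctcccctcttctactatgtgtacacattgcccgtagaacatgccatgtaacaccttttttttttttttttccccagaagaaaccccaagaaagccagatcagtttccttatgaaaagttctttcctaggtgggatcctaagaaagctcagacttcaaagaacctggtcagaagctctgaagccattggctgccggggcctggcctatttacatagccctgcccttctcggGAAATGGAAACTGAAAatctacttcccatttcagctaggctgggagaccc
In *Rsad2* it lies on the strand opposite to the gene and begins 120 bases before the start, and in *Oas1a* a pair of overlapping matches begins 20 and 14 bases before the start. The window of *Oasl1* held no match, and no promoter was matched for *Mx1*.

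Of 15 genes of the cGAS-STING pathway, which senses cytosolic DNA and induces interferon, 5 fell and none rose in late DKO, with 3 fallers without late DKO replicate 1. *Irf7*, the master factor of type I interferon, stood at 22.7, 17.7, 13.2 and 8.07 CPM in early WT, at 2.91, 1.89 and 3.22 CPM in late DKO (−2.51 ± 0.37) and at 2.56 to 4.92 CPM in late WT. *Tmem173*, which encodes STING itself, went from 59.9 to 79.9 CPM to 23.4, 28.5 and 29.5 CPM (−1.36 ± 0.17), and late WT stood at 27.2 to 44.9 CPM. *Samhd1* and *Ifi204* fell by 0.86 and 1.39, the latter a call lost without late DKO replicate 1.

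Immediate-early genes, which growth factors and stress switch on within minutes, were higher in both late groups of the S6K1/S6K2 set and lower in late WT of the S6K1 set. In late DKO 19 of 28 rose and none fell (median 1.17), in late WT 16 rose and none fell (median 0.87), and in the S6K1 set 12 fell and none rose (median −0.70). *Fos* stood at 4.99, 3.65, 4.89 and 7.60 CPM in early WT, at 213, 277 and 342 CPM in late DKO and at 168 to 295 CPM in late WT. *Fosb* stood at 1.40 to 3.10 CPM, at 64.4, 103 and 116 CPM and at 56.1 to 118 CPM. In the S6K1 set *Fos* stood at 142.4 to 231.5 CPM in early WT and at 4.37 to 8.33 CPM in late WT. *Fosb* stood there at 64.04 to 97.75 CPM in early WT and at 0.996 to 1.91 CPM in late WT. Their log2 changes with passage were −4.96 and −5.85. For both genes the early WT libraries of the MEF sets thus already lay far apart. *Egr2* and *Egr3*, zinc finger factors, rose by 2.45 ± 0.35 and 2.69 ± 0.43 in late DKO, and *Egr1* from 51.0 to 65.6 CPM to 218, 305 and 334 CPM (2.29 ± 0.22). *Junb* rose by 1.89, *Ier2* by 1.81 and *Zfp36*, which destabilises cytokine mRNAs, by 2.36. The MEF sets went opposite ways, so passage and MEF set cannot be told apart for these genes.

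**Figure D4:**
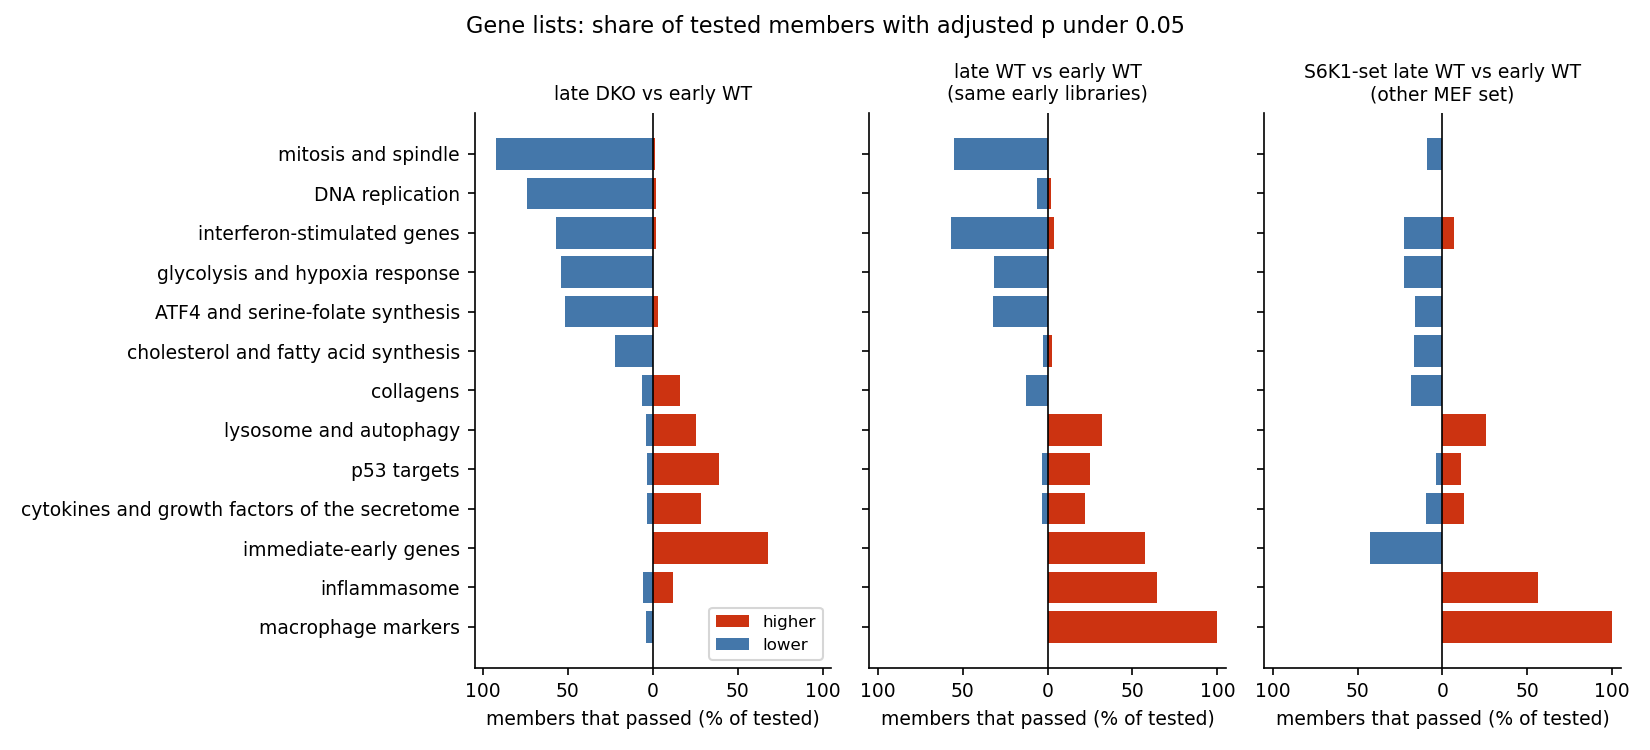
Share of the tested members of 13 gene lists that passed at an adjusted *P* under 0.05 (x axis, percent; red to the right, higher; blue to the left, lower) in late DKO against early WT, in late WT against the same early WT libraries, and in the S6K1 set. Mitosis and DNA replication are widest to the left in late DKO, the macrophage and inflammasome lists are wide to the right only in the WT panels, and the immediate-early list changes side between the MEF sets.

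Of 35 genes of glycolysis and the hypoxia response, 19 fell and none rose (median −0.62), against 11 in late WT (median −0.34) and 8 in the S6K1 set (median −0.39), of which 6 fell in late DKO. *Slc16a3*, the lactate exporter MCT4, stood at 81.7, 83.0, 87.4 and 101 CPM in early WT, at 16.8, 16.4 and 9.09 CPM in late DKO (−2.66 ± 0.32) and at 16.2 to 44.3 CPM in late WT. *Car9*, a carbonic anhydrase induced by hypoxia, fell by 3.25, *Aldoc*, an aldolase, by 2.40 and *Egln3*, an oxygen-sensing hydroxylase, by 1.97. The call of *Aldoc* was lost without late DKO replicate 2.

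Of 31 genes of the ATF4 response and of serine and folate synthesis, 16 fell and 1 rose in late DKO (median −0.64), 10 fell in late WT and 5 in the S6K1 set. Without late DKO replicate 2, 8 fell. *Trib3*, a pseudokinase induced by ATF4, went from 73.8 to 107 CPM to 34.2, 18.8 and 23.4 CPM (−1.78 ± 0.21). *Aldh1l2*, a mitochondrial folate enzyme, fell by 2.20 ± 0.38, and *Slc7a3*, an arginine transporter, had a change of −1.78. *Cbs*, of cysteine synthesis, was the riser (2.04 ± 0.63), and its call was lost without any 1 of the 7 libraries. That of *Slc7a3* was lost without late DKO replicate 2.

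Of 36 genes of cholesterol and fatty acid synthesis, 8 fell and none rose in late DKO, against 1 and 1 in late WT and 6 and 0 in the S6K1 set, where 5 of the 6 (*Fads1*, *Fads2*, *Scd1* and *Scd2* among them) also fell in late DKO. *Fads2*, a desaturase of polyunsaturated fatty acids, stood at 107, 118, 92.7 and 102 CPM in early WT, at 49.5, 38.9 and 43.2 CPM in late DKO (−1.26 ± 0.22) and at 44.6 to 98.3 CPM in late WT. The desaturase *Scd1* and the elongase *Elovl5* had changes of −1.22 and −1.21. The share of this list that passed in late DKO was 22.2%, beside 18.3% of all tested genes.

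Of 78 ribosomal protein genes, whose translation mTORC1 controls, 1 rose and none fell, with a median of 0.39 in late DKO and 0.40 in late WT. Without late DKO replicate 3, 30 of the 78 rose (median 0.622), with DESeq2 9 rose, and without late DKO replicate 1 none rose, 1 fell and the median was 0.177. The riser, *Rpl37a*, had overlapping libraries, and its call was lost without any of 5 libraries (early WT replicates 1 to 3, late DKO replicates 1 and 2). Ribosome biogenesis gave 2 risers and 7 fallers of 59, with 4 and 3 fallers without late DKO replicates 1 and 2. *Heatr1* and *Noc4l*, of small subunit assembly, fell by 0.68 and 0.69, and *Imp3* and *Nop10* rose by 0.81 and 0.74. The calls of *Imp3* and *Nop10* were lost without early WT replicate 1 or 2 or late DKO replicate 1 or 2, and that of *Heatr1* without late DKO replicate 1. Of 46 respiratory chain genes, 3 rose and 5 fell, with 11 risers without late DKO replicate 3, none without early WT replicate 2 or late DKO replicate 1 or 2, and 2 or 3 fallers without these last 3. The shares that passed were 15.3% for ribosome biogenesis and 17.4% for the respiratory chain, neither above the 18.3% of all tested genes. *Cyc1*, cytochrome c1, fell by 0.60 ± 0.12, and *Ndufa1*, *Ndufb3* and *Ndufb10*, complex I subunits, rose by 0.66 to 0.80. The calls of all 3 were lost without early WT replicate 2 or late DKO replicate 1 or 2, and those of *Ndufb3* and *Ndufb10* also without early WT replicate 1 or 3.

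Lysosome and autophagy genes rose in part in each late group. Of 47 tested, 12 rose and 2 fell in late DKO, 15 rose in late WT and 12 in the S6K1 set, and of those 12, 5 rose in late DKO (*Atp6v0d2*, *Atp6v1a*, *Ctsd*, *Ctsf* and *Hexa*) and 11 in late WT. The 12 risers of late DKO were 5 without early WT replicate 1 or 2, 7 without early WT replicate 3, 6 without late DKO replicate 1 and 4 without late DKO replicate 2. The cathepsin gene *Ctsf* stood at 39.1, 32.6, 37.0 and 59.6 CPM in early WT, at 129, 112 and 101 CPM in late DKO and at 87.5 to 89.1 CPM in late WT (late DKO 1.44 ± 0.18). *Atp6v0d2*, a proton pump subunit of macrophages and osteoclasts, rose by 3.27 ± 0.59, to 1.97 to 2.90 CPM, against 4.98 to 7.97 CPM in late WT. *Hexa*, a β-hexosaminidase, rose by 1.07 and *Mitf*, a lysosomal gene regulator, by 1.16, the last a call lost without late DKO replicate 2. Macrophages are rich in lysosomes, and the part of the macrophage level above in these values was not tested.

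Of 31 NRF2 antioxidant genes, 6 rose and 4 fell in late DKO, against 9 and 1 in late WT and 4 and 0 in the S6K1 set. *Fth1*, ferritin heavy chain, stood at 1160, 1286, 1845 and 1808 CPM in early WT, at 4079, 4297 and 2546 CPM in late DKO (1.26 ± 0.27) and at 4535 to 8690 CPM in late WT. *Gsta4*, a detoxifying transferase, rose by 1.38 ± 0.21 and *Gpx3*, a secreted peroxidase, by 1.53 ± 0.43, the last a call lost without early WT replicate 1 or 2 or late DKO replicate 1 or 2. *Slc7a11*, the cystine importer, fell by 1.20 ± 0.23. The 4 fallers were 2 without late DKO replicate 2. The 6 risers were 2 or 3 without early WT replicate 1, 2 or 3 or late DKO replicate 1 or 2.

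Of 32 cytokines and growth factors of the secretome tested, 9 rose and 1 fell, against 7 and 1 in late WT and 4 and 3 of 31 in the S6K1 set. The 9 were 4 or 5 without early WT replicate 1, 2 or 3 or late DKO replicate 2. *Ereg*, an EGF receptor ligand, stood at 16.8, 17.3, 19.5 and 17.3 CPM in early WT, at 45.0, 49.2 and 54.8 CPM in late DKO and at 26.6 to 52.4 CPM in late WT (late DKO 1.49 ± 0.19). *Igf1* rose to 68.2 to 100 CPM from 17.1 to 39.0 CPM (1.48 ± 0.27), below the 116 to 201 CPM of late WT. *Il33*, an alarmin, rose by 1.60 ± 0.42, and its call was lost without early WT replicate 1, 2 or 3 or late DKO replicate 1 or 3.

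Matrix proteases and inhibitors gave 9 risers and 2 fallers of 32 in late DKO, 3 and 2 in late WT, and 4 and 1 in the S6K1 set. The 9 were 4 or 5 without early WT replicate 1, 2 or 3 or late DKO replicate 2 or 3. *Serpine2* (protease nexin 1) stood at 172, 126, 233 and 280 CPM in early WT, at 627, 911 and 777 CPM in late DKO and at 343 to 474 CPM in late WT (late DKO 1.93 ± 0.24). *Mmp2*, a gelatinase, rose from 366 to 502 CPM to 746, 1209 and 1840 CPM (1.51 ± 0.36), a call lost without late DKO replicate 3. *Mmp15* rose by 1.64, a call lost without early WT replicate 1, 2 or 3 or late DKO replicate 1 or 2, and *Adamts4*, an aggrecanase, fell by 1.54 ± 0.30.

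Of 31 collagens, 5 rose and 2 fell in late DKO, while none rose and 4 fell in late WT. The share that passed in late DKO was 22.6%, beside 18.3% of all tested genes. *Col1a1*, the main fibrillar collagen chain, stood at 10140, 12340, 9969 and 7631 CPM in early WT, at 4563, 3262 and 4915 CPM in late DKO (−1.24 ± 0.23) and at 2913 to 4448 CPM in late WT. *Col1a2* fell by 0.68, a call lost without early WT replicate 2 or late DKO replicate 2. *Col8a2* (2.67 to 10.1 CPM, then 12.0, 32.2 and 52.8 CPM) rose by 2.53 ± 0.62, *Col23a1* by 1.88 and *Col28a1* by 1.55. The call of *Col8a2* was lost without early WT replicate 2 or late DKO replicate 3, and those of *Col23a1* and *Col28a1* without late DKO replicate 2. Of 19 contractile genes, only *Itga8*, an integrin of myofibroblasts, passed (1.40 ± 0.23).

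*Igf2*, the imprinted fetal growth factor (chromosome 7, 142650768 to 142666816), stood at 10.7 to 23.6 CPM in early WT, at 0.428, 1.49 and 3.03 CPM in late DKO (−3.35 ± 0.53) and at 0.453 to 1.25 CPM in late WT. In the S6K1 set it fell by 6.05, and the difference between the changes was 2.69 (adjusted *P* = 0.023). Of 20 imprinted growth genes, 3 rose and 2 fell in late DKO, against 0 and 4 in late WT and 0 and 6 in the S6K1 set. *Dlk1*, which holds back adipocyte differentiation, rose by 1.85 ± 0.49, a call lost without early WT replicate 2 or 3 or late DKO replicate 3, and *Dcn*, the matrix proteoglycan decorin, rose by 1.77 ± 0.40. Of 14 tested genes of the IGF axis, 3 rose (*Igf1*, *Igfbp2* and *Igfbp3*) and 2 fell (*Igf2* and *Igfbp5*).

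Markers of other cell types that embryo cultures can hold were low, and some moved. Epithelial and mesothelial markers summed to 115 to 138 CPM in early WT, 19.4 to 29.1 CPM in late DKO and 16.4 to 54.2 CPM in late WT, and 3 of 8 tested fell in late DKO: *Msln*, *Krt19* (−2.28) and *Upk3b* (−1.74). The call of *Upk3b* was lost without early WT replicate 3 or late DKO replicate 1 or 2. Skeletal muscle markers summed to 61.4 to 199 CPM in early WT and 19.8 to 46.0 CPM in late DKO, and *Acta1* and *Chrna1* fell among 4 tested, the first a call lost without any 1 of the 7 libraries and the second without late DKO replicate 1 or 3. Among endothelial markers, 1 of 8 fell (*Egfl7*, −1.19), and among adipocyte markers *Cd36*, also a macrophage scavenger receptor, fell by 2.87 and *Cebpa* rose by 0.65, a call lost without early WT replicate 1 or 2 or late DKO replicate 1 or 2. None of the neural, cartilage and bone, or sex-linked genes tested passed (4, 4 and 5 genes). Of the 15 fibroblast markers, *Dcn* and *Pdgfrb* (0.55) rose, and *Col1a1* and *Col1a2* fell. The call of *Pdgfrb* was lost without early WT replicate 1 or 2 or late DKO replicate 1 or 2.

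The late DKO change was last tested directly against the passage change of the S6K1 set, in 1 model of all 22 libraries. Of 14886 genes, 857 (5.76%) differed, 285 with a higher and 572 with a lower late DKO change, and the count was 427 without late DKO replicate 2. MEF set and kinase genotype both differ between the changes and cannot be told apart. The 5 genes with the smallest *P* on the higher side were *Fos* (difference 10.65), *Fosb* (11.50), *Egr1* (5.54), *Junb* (3.46) and *Ier2* (3.39). On the lower side they were *Rps6kb2* (−3.75), *4632428N05Rik* (−2.89), *Hpgd* (−3.19), *Arhgap19* (−2.79) and *Sykb* (−2.58). *Hpgd*, which inactivates prostaglandins, stood at 8.74, 7.12, 6.33 and 6.94 CPM in early WT, at 18.0, 7.84 and 9.21 CPM in late DKO and at 45.9 to 96.7 CPM in late WT. *Sykb*, the older symbol of the kinase *Syk* of immune receptors, stood at 7.18 to 10.1 CPM in early WT, at 5.26 to 6.85 CPM in late DKO and at 17.6 to 21.8 CPM in late WT. In both genes every late WT library lay above the late DKO libraries, and neither passed between late DKO and early WT.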

How the data were processed

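RNA was measured in 22 MEF libraries, and the comparison used 7. The sources differ on how the authors made the table: the paper's methods name TopHat, the mm9 genome and HTSeq, and the submitters' processing notes name STAR 2.7.1a and mm10. The deposited values are raw counts. Of the 55401 gene identifiers, 22812 are absent from GENCODE vM1 of mm9, so the counts were not made on that release. The strand setting and annotation are not given in the sources used here, so overlapping or antisense genes (*Igf2as*) are uncertain. Symbols were found for 32589 identifiers, carrying 96.98% of counts. Positions and promoters are from RefSeq GRCm38.p6, by symbol.

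The tests ran in edgeR 4.0.16 (R 4.3.3): filterByExpr, TMM, a robust quasi-likelihood fit of the 3 groups of a MEF set (11 libraries), the F test, Benjamini-Hochberg adjustment and a threshold of 0.05. The group not compared, late WT or S6K1 KO, adds to the filter, the TMM scaling and the spread, but not to the group means compared. A gene low in both groups compared could therefore be tested because the group not compared was high. The difference between changes was fitted over 22 libraries in 6 groups. DESeq2 1.42.0 was an alternative (the submitters' notes name 1.28.1). The pipeline was tested on simulated data. List levels used log2(CPM + 0.5). CPM were scaled within each MEF set. The other alternatives were RLE scaling, no filter, only the groups compared, a Y-linked covariate (4 genes), a log2 fold change of at least 1, and leaving out each library. No pair of replicates in the 3 groups of the S6K1/S6K2 set differed by as little as sampling noise (chi-square per degree of freedom 20.7 to 66.5 over genes with at least 20 counts). Total counts over all libraries were 10742454 to 17314832, so 3 counts correspond to 0.173 to 0.279 CPM.

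The 34 gene lists held 1006 symbols, of which 7 were not found and 15 were matched by another name. Named genes followed a rule: the S6 kinases, *Cdkn2a*, *Cdkn1a*, *Il1a*, *Il1b* and *Il6*; the 10 largest rises and falls among genes with a symbol that passed, had a mean of at least 1 CPM and did not overlap; up to 4 passed members of each list by size of change, or the 2 with the smallest *P* where none passed; the 5 genes per direction passed in both late DKO and the S6K1-set passage comparison, and 5 passed in opposite directions, by *P*; and 5 per sign of the difference between changes. Other genes named as members of a count (*Pttg1*, *E2f1*, *Isg15* and the like) were chosen after their values were seen. The comparison, lists and rules were chosen with earlier results of these data known. Some genes that the rule names are not reported here.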

Additional observations from a re-analysis of the deposited data

Results flagged for a closer look

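In early WT, 1 of the named genes had a library far from the others by Dixon's test: *Fosb*, whose highest library was at 3.10 CPM beside 1.40 CPM in the lowest. Chance gives about 1 such case in 20 groups, and 129 named genes were looked at.

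The 10 genes with the smallest *P* for a difference between the late DKO change and the S6K1-set passage change were tested for that difference in 1 model and passed. The log2 difference was 10.65 for *Fos*, 11.5 for *Fosb*, 5.54 for *Egr1*, 3.46 for *Junb* and 3.39 for *Ier2*, all of which also rose in late WT of the S6K1/S6K2 set. It was −3.75 for the deleted gene *Rps6kb2*. It was −3.19 for *Hpgd*, −2.89 for *4632428N05Rik*, −2.79 for *Arhgap19* and −2.58 for *Sykb*, which rose in late WT of both MEF sets.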

How the results depend on the processing

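The count of genes that passed in late DKO against early WT stayed within 1.5 times 2623 with RLE, no filter, all 22 libraries, only the groups compared, the Y-linked covariate and DESeq2 (2171 to 3473), was 1105 with a log2 change of at least 1, and 1163 to 2757 without 1 library. The S6K1-set passage count of 1827 was 3288 with the Y-linked covariate and 1223 to 1749 without 1 library. The difference between the changes gave 1305 genes with DESeq2 in place of 857, and 427 to 1149 without 1 library. Passage genes passed in the same direction in late DKO numbered 778 with DESeq2 in place of 444, and 257 to 487 without 1 library. The cause of these shifts was not tested, though fewer libraries lower the power of a fit. Of 123 named genes that passed, none reversed, 87 kept their call without each library in turn and 84 under every alternative. *Il6*, which did not pass, changed sign with all 22 libraries (−0.004), no filter (−0.019), the Y-linked covariate (−0.036), without early WT replicate 1 or 2 (−0.277, −0.259) and without late DKO replicate 1 (−0.610), with a highest value of 0.536 without early WT replicate 4, and *Runx2*, at −0.041, was at 0.003 with the Y-linked covariate and without late DKO replicate 3, with a lowest value of −0.148 without late DKO replicate 2. No paired analysis was possible because the labels give the libraries no shared replicate number, mother or culture, and the numbers used here follow accession order. With 3 late DKO libraries, small changes of genes with few counts could go undetected.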
